A study of Mus musculus with 4 samples.

Results

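Gip-dominant cells are the single intestinal cells in which Gip, the gene of glucose-dependent insulinotropic polypeptide, was the leading hormone gene. The rule was applied to the E17.5, adult and irradiated adult libraries. A cell was a member if it showed 500 or more genes and no more than 20% mitochondrial UMIs (counts of unique molecular identifiers, 1 per captured RNA), if Gip had the most UMIs among Sst, Gip, Ghrl, Gcg, Nts and Cck, if Gip made up at least 2% of its UMIs, and if Ins1 plus Ins2 made up less than 1%. Members were thus chosen by their measured hormone UMIs. This gave 1689 members among 11574 cells that passed the gene and mitochondrial limits in those 3 libraries, and among 22731 deposited barcodes in all 4 libraries. The E17.5 library held 127, the adult library 1070 and the irradiated adult library 492. All libraries came from FACS-sorted intestinal epithelial cells of Bmi1-GFP mice, which carry a GFP reporter of the Bmi1 gene, and the groups were embryonic day 12.5 (E12.5), embryonic day 17.5, adult, and adult after irradiation, with 1 library each. The dose and the delay after irradiation, the number, age and sex of the mice and the sorting gates are not given in the labels. With 1 library a group, a difference between libraries has no replicate check and carries no p-value.

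In the gut, Gip is made by the K cell, an enteroendocrine cell most common in the duodenum and jejunum. Enteroendocrine cells arise from crypt progenitors that pass through a Neurog3-positive state, and the transcription factors Pax6, Isl1, Rfx6, Pdx1 and Gata4 are known to act in their later differentiation or on the Gip promoter. K cells sense sugars and fats, with the sodium-glucose transporter Slc5a1 and fatty acid receptors such as Ffar1 and Gpr119, and the released hormone raises insulin secretion and fat storage after a meal. The label was checked against genes outside the rule: Pax6, Rfx6 and Isl1, and the fatty acid binding protein Fabp5, which is known from K cells, were all above the level of the other hormone cells in every library, whereas Gata4 was not called and Ffar1 was lower, as described below.

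The Gip gene (ENSMUSG00000014351) lies on chr11:96024545-96030831, plus strand, in the GENCODE M21 annotation of GRCm38. Its upstream sequence is shown because GATA factors are the best-known regulators of this promoter. The run below, from RefSeq's GRCm38.p6 table, covers 237 bases at chr11:96024295-96024531 on the plus strand and ends 1 base before the first annotated start at 96024532. Capitals mark the motif AGATAA, of the type that these factors bind, which was searched on both strands.
Gip promoter: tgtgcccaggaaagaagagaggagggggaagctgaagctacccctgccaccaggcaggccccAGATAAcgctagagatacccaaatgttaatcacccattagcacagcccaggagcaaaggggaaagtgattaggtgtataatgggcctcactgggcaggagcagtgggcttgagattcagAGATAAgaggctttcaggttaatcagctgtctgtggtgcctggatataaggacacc
It holds AGATAA at -175 and at -56 from that start, and no other match. Of 32851 promoter windows of the same length, 9.67% held at least 1 match and 0.880% held at least 2. A match is a string of letters and not a shown binding site. Gata4 transcripts were counted at 35.5 CPM (counts per 1000000 UMIs, summed over members) at E17.5, 31.8 for the adult and 30.7 after irradiation, and those of Pdx1 at 99.1, 58.1 and 65.5 CPM.

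No member was found at E12.5, where 0 of 4226 kept cells allows a share of up to 0.0710%. That library held 31 Gip UMIs in 4 cells, 19 of them in 1 cell. Members made up 2.76% of kept E17.5 cells (exact 95% binomial interval 2.31 to 3.27), 28.2% of adult cells (26.8 to 29.7) and 15.5% of irradiated adult cells (14.2 to 16.8). Among cells led by any of the 6 hormone genes, the Gip-dominant share was 12.6% of 1004 E17.5 cells (10.7 to 14.9), 67.2% of 1592 adult cells (64.8 to 69.5) and 31.9% of 1544 irradiated adult cells (29.5 to 34.3). Cck-dominant cells numbered 340, 267 and 726 in the same order, so that the adult library was led by Gip and the other libraries by Cck. These intervals cover counting error only. The sorting gates could set such shares, and their part in these values was not tested.

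Depth differed between the libraries and within them. The median member had 8540 UMIs at E17.5, 2591 for the adult and 3884.5 after irradiation, while the other hormone-dominant cells had medians of 8813, 7867 and 13364. Adult and irradiated members fell into a shallow and a deep group with few cells between, at about 6000 UMIs, a split chosen after the values were seen. The deep group held 92.1% of members at E17.5, 17.5% for the adult and 37.2% after irradiation. In the adult, deep members had a median of 3.58% mitochondrial UMIs, and shallow members had 10.1%. Malat1, a nuclear RNA, was at 12866 CPM in deep and 53263 CPM in shallow adult members. Depth and RNA quality therefore moved with stage and irradiation. Values from deep members are given beside part of the results that follow. In the comparisons of hormone classes, levels and calls of listed genes are mostly given over all members. Those members had fewer UMIs than the other hormone cells in both adult libraries. Between 6 and 12 barcodes were shared by any pair of libraries, and 1 was a member in both adult libraries.

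Gip itself, which chose the members, is described without a test. Gip made up a median of 10.6% of the UMIs of an E17.5 member (range 2.32 to 36.2), 14.2% for adult members (2.02 to 58.0) and 17% for irradiated ones (2.03 to 46.3). Deep members had medians of 10.8%, 29.2% and 25.4%, and shallow members 9.17%, 13.2% and 12.1%. Gip UMIs were also found in other cells, and the part of free RNA in them was not tested. In tuft-marker cells, which carry tuft genes and should lack Gip, the median was 0.168% in the adult and 0.112% after irradiation. In E17.5 enterocyte-marker cells it was 0. Just inside the limit, 3, 29 and 20 members had 2 to 2.5% Gip, and just outside it 2, 58 and 20 cells had 1.5 to 2%. A further 35, 13 and 30 cells held at least 2% Gip but had more UMIs of another of the hormone genes.

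**Figure D1:**
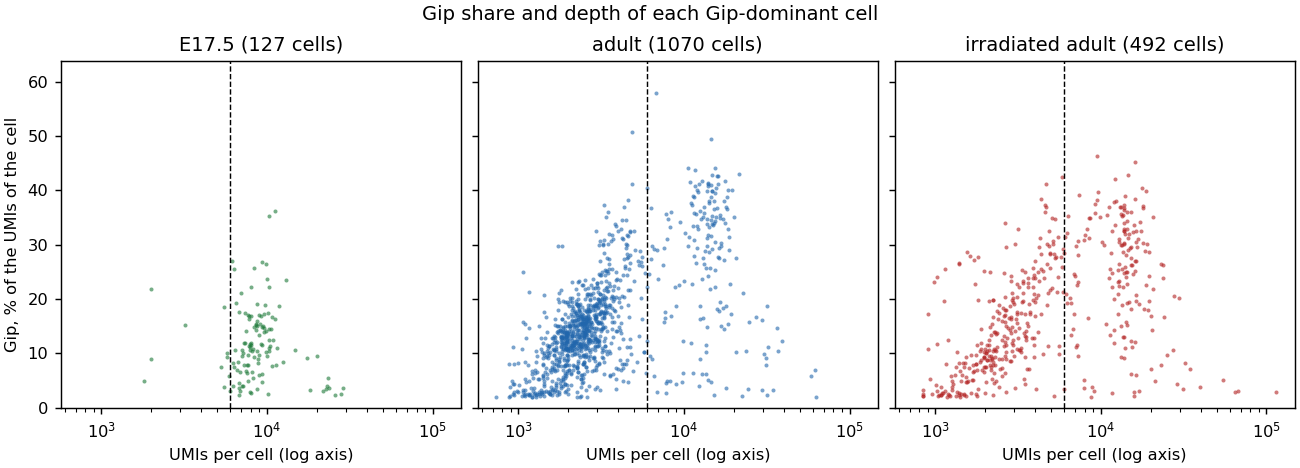
Each point is 1 Gip-dominant cell, with its UMIs on a log axis and Gip as a percentage of its UMIs, in the E17.5, adult and irradiated adult libraries; the dashed line marks 6000 UMIs. The adult and irradiated adult cells form a shallow group, in which the Gip percentage is higher in deeper cells, and a deep group with median depths of 13965 and 13886 UMIs.

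Beside Gip, the members carried secretin (Sct) and cholecystokinin (Cck) RNA, and the median share of a member's UMIs was highest at E17.5 for both. Sct was the second peptide gene, by UMIs, in 86.6% of E17.5 members (79.4 to 92.0), 86.6% of adult members (84.4 to 88.6) and 56.5% of irradiated ones (52.0 to 60.9). Cck was second in 11.0% (6.16 to 17.8), 9.44% (7.75 to 11.4) and 36.6% (32.3 to 41.0). The counts were made among Cck, Gcg, Ghrl, Nts, Sst, Sct, Pyy and Tac1, and Cck could not exceed Gip by the rule. Sct took a median of 4.73% of a member's UMIs at E17.5, 0.767% for the adult and 0.418% after irradiation. The corresponding background was 0.00545% in E17.5 enterocyte-marker cells, and 0.192% and 0.188% in tuft-marker cells of the adult and irradiated adult. At least 1% Sct was reached by 94.5%, 40.6% and 22.0% of members.

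The Cck median was 1.17% at E17.5, 0.190% for the adult and 0.305% after irradiation, against a background of 0, 0.0623% and 0.117%. At least 1% Cck was found in 55.9% of E17.5 members, 4.30% of adult and 8.54% of irradiated adult members. In deep members the medians were 1.28%, 0.248% and 0.204%, and 57.3%, 13.9% and 12.6% of them reached 1% Cck. The adult and irradiated adult thus stood in the opposite order there. A plain count of cells with a Cck UMI hardly separated the libraries. After thinning every cell to 2000 UMIs, which left out 3, 284 and 99 shallower members, 98.4%, 93.8% and 96.7% of members had a Cck UMI, and so did 7.14% of E17.5 enterocyte-marker cells, 70.0% of adult and 85.7% of irradiated tuft-marker cells. Without thinning the shares were 100%, 98.4% and 99.6%. In both adult libraries a Cck UMI was thus found in most cells of either kind.

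Other hormones reached 1% of UMIs in few members. Peptide YY (Pyy), a hormone of more distal L cells, reached 1% of UMIs in 7.87% of E17.5 members, 0.654% of adult and 0.610% of irradiated adult members. The thinned share with a Pyy UMI was 41.9% at E17.5 (33.1 to 51.1), above the 5.0% in enterocyte-marker cells (2.03 to 10.0). In the adult it was 16.0% (13.5 to 18.8) against 2.94% in tuft-marker cells (1.97 to 4.23), and in the irradiated adult 9.16% (6.50 to 12.5) against 4.66% (2.69 to 7.46). Ghrelin (Ghrl) UMIs were found in 39.5% of E17.5 members (30.9 to 48.7) against 7.14% of enterocyte-marker cells. In the adult the Ghrl share was 26.5% against 21.6% in tuft-marker cells, and in the irradiated adult 40.7% against 33.5%. Ghrl reached 1% in 6.30% and proglucagon (Gcg) in 3.15% of E17.5 members, and each did so in at most 0.407% of members of either adult library.

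**Figure D2:**
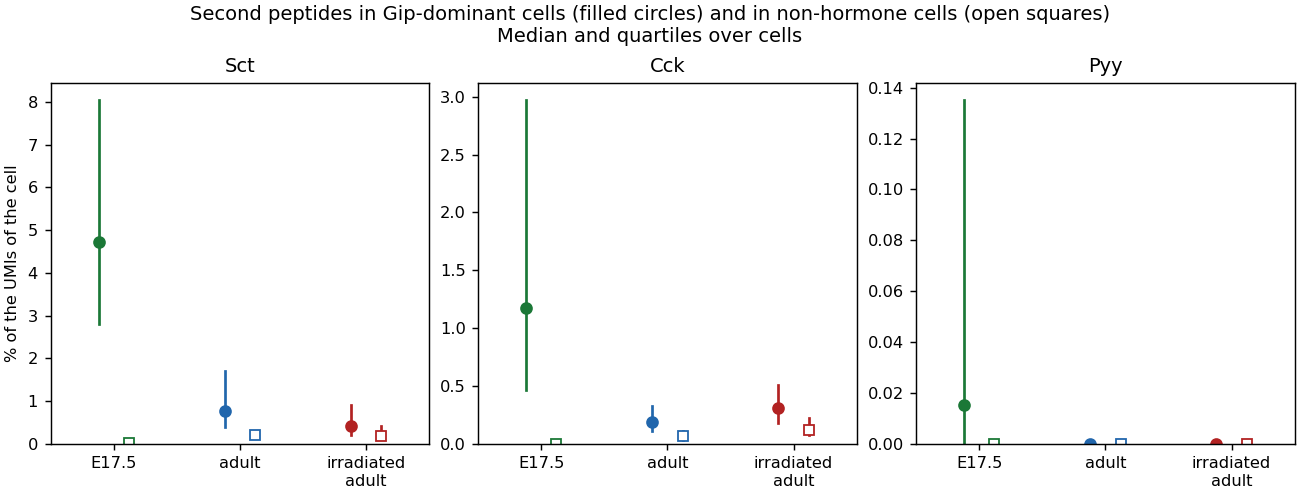
The percentage of a cell's UMIs from Sct, Cck and Pyy is plotted as the median (marker) and quartiles (bar) over cells for Gip-dominant cells (filled circles) and for background cells (open squares: enterocyte-marker cells at E17.5, tuft-marker cells in both adult libraries). The E17.5 Gip-dominant cells sit highest for all 3 peptides, with medians of 4.73% Sct and 1.17% Cck.

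To find what sets Gip-dominant cells apart from the cells led by Sst, Ghrl, Gcg, Nts or Cck, UMIs were summed per library and class, and the classes were compared within libraries. CPM in this comparison leaves out the hormone genes of the rule, Ins1 and Ins2. The edgeR quasi-likelihood test with library as a block (3 libraries) called 1221 genes higher (9.65% of 12647 tested) and 1104 lower (8.73%) at a Benjamini-Hochberg adjusted p under 0.05. Gip-dominant cells had more RNA of the cannabinoid receptor Cnr1, the lipid handling genes Fabp5 and Scarb1, and the metabolic kinase Pdk4. They also had more of the adhesion receptor Cd44 and the transcription factor Rfx6. They had less of Iapp, Agr2 and Pzp, although Iapp was called higher against Cck-dominant cells alone. The counts were 810 and 691 by DESeq2 and 79 and 59 by edgeR without the block, and they depend on each library, being 2198 and 2037 without E17.5, 480 and 465 without the adult, and 764 and 673 without the irradiated adult. All 24 genes named in the next paragraphs kept their direction and their side of the threshold in the DESeq2 and left-out-library fits (14 did without the block), and also among cells with at least 6000 UMIs (908 and 902 genes called) and among those with fewer (611 and 688).

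Log2 fold changes stand in parentheses. Cnr1 (chr4:33924593-33948831, plus strand) encodes the CB1 receptor for endocannabinoids. Its level was 247 CPM at E17.5, 519 for the adult and 425 after irradiation, against 25.9, 15.8 and 10.4 in the other hormone cells (log2 fold change 4.48 ± 0.36 (SE), adjusted p = 0.000103). Fabp5 (chr3:10012548-10016607, plus strand), a fatty acid binding protein, was at 5766 CPM at E17.5, 8831 for the adult and 11886 after irradiation, against 434, 736 and 716 (log2 fold change 3.73 ± 0.20 (SE), adjusted p = 2.45e-05). It was the most abundant of the 12 genes named here as higher. Pdk4, the kinase that shuts pyruvate off from oxidation, was at 77.3 CPM at E17.5, 224 for the adult and 247 after irradiation, against 7.3, 3.17 and 6.24 (log2 fold change 4.84 ± 0.38 (SE), adjusted p = 9.39e-05). Scarb1, the HDL and lipid uptake receptor SR-B1, stood at 104 CPM at E17.5, 343 for the adult and 229.6 after irradiation, against 22.9, 17.7 and 16.6 (log2 fold change 3.39 ± 0.33 (SE), adjusted p = 0.000257). The hyaluronan receptor Cd44 was measured at 167 CPM at E17.5, 474 for the adult and 429 after irradiation, against 7.99, 40.1 and 36.3 (log2 fold change 3.71 ± 0.20 (SE), adjusted p = 2.45e-05). For each of these genes, the lowest of the 3 Gip-dominant values lay above the highest of the other cells.

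The widest difference among the higher genes was in Slfn8, a Schlafen family gene, with 6.68 CPM at E17.5, 175 for the adult and 93.8 after irradiation, against 0.551, 4.3 and 3.26 (log2 fold change 4.88 ± 0.23 (SE), adjusted p = 2.30e-05). Its adult value came mostly from shallow members, at 268 CPM of all UMIs against 39.1 in deep ones, and the fold change among cells with at least 6000 UMIs was 3.76 on the log2 scale. Pkib, an inhibitor of protein kinase A, had a log2 fold change of 4.59 (adjusted p = 0.000257 by edgeR), with 328 CPM at E17.5, 307 for the adult and 247 after irradiation. The remaining higher genes by this rule were Pdzd3 (4.08), a scaffold protein of the apical membrane, Ankrd31 (4.10), the ectonucleotidase Entpd3 (3.56), Tekt2 (3.32) and Rfx6 (3.05). For Tekt2, a cilium protein, the difference was narrow at E17.5, where it had 61.1 CPM against 26.4.

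Among the 12 genes that were lower, amylin (Iapp), a peptide of islet beta cells and of some gut endocrine cells, was at 333 CPM at E17.5, 32 for the adult and 53.6 after irradiation, against 1844, 2676 and 2440.5 (log2 fold change -4.89 ± 0.71 (SE), adjusted p = 0.00184). Agr2, a disulphide isomerase of secretory cells, was at 185 CPM at E17.5, 149 for the adult and 448 after irradiation, against 3186, 4750.1 and 4519 (log2 fold change -4.20 ± 0.32 (SE), adjusted p = 8.33e-05). Pzp, an alpha-2-macroglobulin family protease inhibitor, was at 12.4, 7.13 and 7.16 CPM against 66.4, 296 and 337 (log2 fold change -5.01 ± 0.44 (SE), adjusted p = 0.000159 by edgeR). The others were the potassium channel Kcnk16 (-4.35), the zinc and metal transporter Slc39a8 (-4.28), C-reactive protein (Crp, -4.29), Tril (-4.81), Tmem108 (-4.21), Galnt13 (-3.87), Agr3 (-3.86), Ceacam10 (-3.82) and Habp2 (-3.74). Most of these log2 differences were smaller at E17.5 than in either adult library, and that difference between libraries was not tested.

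**Figure D3:**
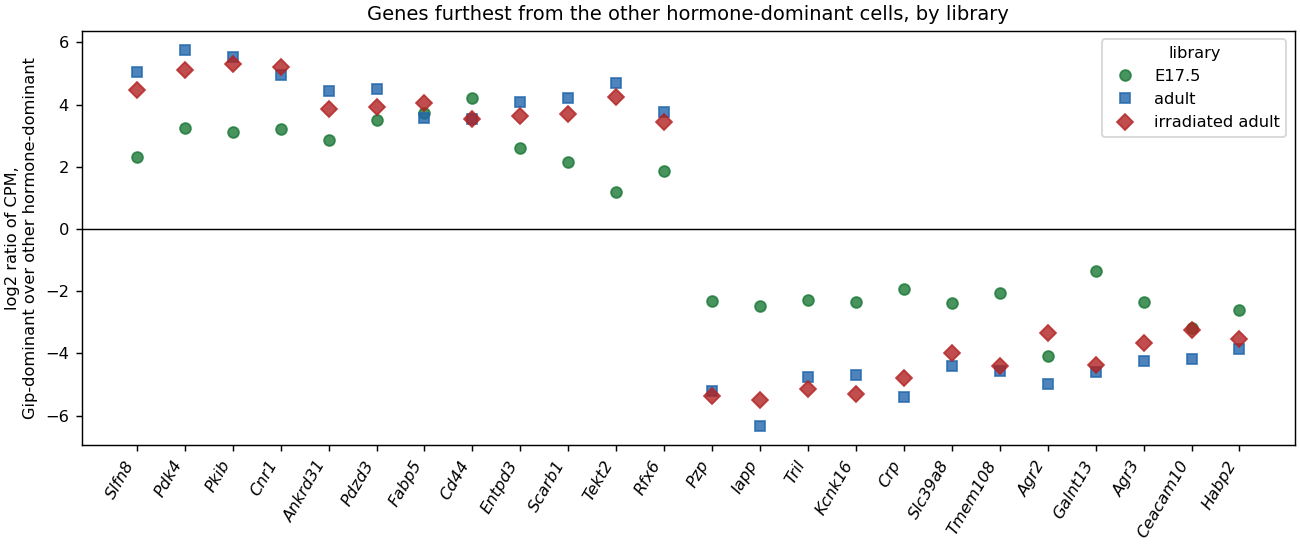
For each of 24 genes, the log2 ratio of CPM (plus 1) in Gip-dominant over other hormone-dominant cells is plotted by library (circles E17.5, squares adult, diamonds irradiated adult). All 12 genes on the left lie above 0 and all 12 on the right below 0 in every library, as the rule for naming them required, and for most of them the E17.5 point lies closest to 0.

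Of 36 transcription factors of the endocrine lineage, 32 were tested, 7 were higher and 8 lower in Gip-dominant cells, with a median log2 fold change of 0.04 (all genes -0.01). Rfx6 (chr10:51677756-51730432, plus strand), needed for endocrine differentiation and K cell identity, was at 122 CPM at E17.5, 436 for the adult and 352 after irradiation, against 32.9, 31 and 31.7 (log2 fold change 3.05 ± 0.31 (SE), adjusted p = 0.00033). Its adult level was lower in deep members, as given below, and it stayed called among cells with at least 6000 UMIs. Pax6, which binds the Gip promoter, was at 374 CPM at E17.5, 577 for the adult and 488 after irradiation, against 184, 148 and 167 (log2 fold change 1.46 ± 0.18 (SE), adjusted p = 0.00075). Smaller differences were found for Isl1 (0.68, adjusted p = 0.0137 by edgeR), Pdx1 (0.82, 0.00743), Myt1 (0.67, 0.0161), Nkx2-2 (0.56, 0.0136) and Mnx1 (1.43, 0.0376). Isl1 was abundant, at 706 CPM at E17.5, 1212 for the adult and 651 after irradiation.

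On the lower side, Hhex, a factor of somatostatin cells, was at 43 CPM at E17.5, 5.41 for the adult and 7.16 after irradiation, against 158, 214 and 169 (log2 fold change -3.91 ± 0.53 (SE), adjusted p = 0.00126), and Onecut3 at 68.7 CPM at E17.5, 17 for the adult and 9.89 after irradiation, against 197, 245 and 213 (log2 fold change -3.28 ± 0.46 (SE), adjusted p = 0.00163). Etv1, which is enriched in several enteroendocrine types, had a log2 fold change of -1.72 (adjusted p = 0.0105 by edgeR). Neurod1, a general endocrine factor, was lower by a smaller margin (-0.91, 0.00309), as were Sox4 (-0.76), Foxa3 (-0.78) and Tox3 (-0.70). The progenitor factor Neurog3 had 0, 1 and 3 UMIs in all members of the 3 libraries, against 78, 15 and 78 UMIs in the other hormone cells. Gata4, the factor whose motif type is capitalised above, was not called, with 41.1, 40.1 and 38.9 CPM against 22.2, 26.3 and 31.4 (adjusted p = 0.0671 by edgeR).

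The nutrient receptors and transporters were split. Of 23 tested, 8 were higher and 9 lower, with a median of -0.45. Slc5a1, the sodium-glucose cotransporter SGLT1, was at 51.6 CPM at E17.5, 246 for the adult and 213 after irradiation, against 21.6, 89.4 and 65.5 (log2 fold change 1.44 ± 0.14 (SE), adjusted p = 0.000271). Abcc8 (0.79, adjusted p = 0.00515 by edgeR) and Kcnj11 (0.75, 0.00875), which together form the ATP-sensitive potassium channel of beta cells, were each higher. So were the lipid receptors Gpr119 (0.75, 0.0123) and Ffar4 (0.52, 0.0263), and the galanin receptor Galr1 (1.27, 0.00121). The long-chain fatty acid receptor Ffar1 was lower (-0.75, 0.0098), at 76.4, 179 and 151 CPM against 98.4, 285 and 293.

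Receptors for other nutrients were also lower. The short-chain fatty acid receptor Ffar2 was at 96.4 CPM at E17.5, 23.1 for the adult and 45.4 after irradiation, against 253, 241 and 234 (log2 fold change -2.44 ± 0.32 (SE), adjusted p = 0.00113). The calcium and amino acid sensing receptor Casr had 1 UMI over all members of each library, against 3.99, 10.2 and 13.7 CPM in the other hormone cells (adjusted p = 0.000704 by edgeR). The peptide transporter Slc15a1 (-1.24), the somatostatin receptor Sstr5 (-1.45), the ion channel Asic5 (-3.59), Ffar3 (-0.68), Adra2a (-1.42) and Trpc4 (-2.32) were called lower as well. Asic5 was, however, called higher against Cck-dominant cells alone and against Gcg-dominant cells alone.

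Of 23 excitability channel genes tested, 3 were higher and 5 lower. The P/Q-type calcium channel Cacna1a was higher by a small margin (0.54, adjusted p = 0.0462 by edgeR). The L-type calcium channel Cacna1c (1.58, adjusted p = 0.015 by edgeR) and its beta subunit Cacnb2 (1.62, 0.00488) were higher in the edgeR test, but Cacna1c was at 5.73 CPM against 9.36 at E17.5, the opposite order to the adult libraries. The sodium channel Scn9a was lower, with 3.82 CPM at E17.5, 0.492 for the adult and 0.682 after irradiation, against 27.1, 8.83 and 15.7 (log2 fold change -3.79 ± 0.38 (SE), adjusted p = 0.000323). Scn3b (-1.54), Kcnq1 (-1.21), Kcnh2 (-0.93) and Scn3a (-0.80) were the remaining genes called lower.

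Secretory granule genes differed by small amounts in both directions, with 5 of 22 higher, 5 lower and a median of -0.02. Chga, the granin chromogranin A, was lower in Gip-dominant cells at 271 CPM at E17.5, 524 for the adult and 1592 after irradiation, against 647, 865 and 2313 (log2 fold change -0.89 ± 0.17 (SE), adjusted p = 0.00719). The prohormone convertase Pcsk1, which cuts proGIP to GIP, was also lower (-0.80, adjusted p = 0.0202 by edgeR). The amidating enzyme Pam (0.57), the calcium sensor secretagogin (Scgn, 0.69), Ptprn2 (1.28), Vwa5b2 (1.22) and Cplx2 (0.85) were higher. Of 13 peptide genes outside the rule, 8 were lower and 1 higher. Sct was at 62176 CPM at E17.5, 18836 for the adult and 11392 after irradiation, against 71307, 80705 and 72789 (log2 fold change -1.75 ± 0.47 (SE), adjusted p = 0.0305), so that it was close to the other hormone cells at E17.5 and well below them in both adult libraries. Pyy (-1.35, adjusted p = 0.00608 by edgeR), Gal (-2.83, 0.00109) and Ucn3 (-2.38, 0.000666) were lower, and adrenomedullin (Adm, 1.96, 0.00593) was higher.

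In the lipid list, 6 of 20 genes were higher and 5 lower. Beside Fabp5, the retinol binding protein Rbp2 was at 836 CPM at E17.5, 1159 for the adult and 1601 after irradiation, against 156, 174 and 104 (log2 fold change 2.97 ± 0.27 (SE), adjusted p = 0.000202). Fabp1 (1.18, adjusted p = 0.00123 by edgeR), Dgat2 (1.01, 0.0116), Apoa4 (0.77, 0.013) and Dgat1 (0.67, 0.0142) were higher, while Acsl1 (-1.45), Pck1 (-2.78), Apob (-0.81), Scd2 (-0.81) and Ucp2 (-0.52) were lower. Several of these, such as Fabp1, Rbp2 and Apoa4, are also enterocyte markers, of which 3 of 12 were called higher and 2 lower. Summed enterocyte marker levels were 4518, 5467 and 2855 CPM in members and 2609, 3596 and 2342 CPM in the other hormone cells.

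Markers of other cells moved with this contrast. Of 10 enterochromaffin markers, 4 were called lower (Tph1, Slc18a1, Chga and Ucn3) and 1 higher (Ddc). Of 13 Paneth markers 6 were called higher, and their summed level was 111, 6514 and 22326 CPM in members against 137, 4428 and 6392 CPM. Defensin genes are near-identical copies, so their separate counts are uncertain. Of 10 pancreatic acinar markers tested, 7 were lower, and their sum was 3252, 80.7 and 210 CPM against 4352, 108 and 144 CPM; Cpa1, Cpb1, Prss2 and Ctrb1 were at 0 in both adult libraries. T cell markers Cd3e, Cd3d, Cd8a and Gzma were at 0 in members of every library. Immune markers summed to 12.4, 15.6 and 14.0 CPM in members against 1.41, 5.11 and 9.29 CPM in the other hormone cells. Of the 2 immune markers tested, Fcer1g was called higher and the other was not called. The part of these cells or of free RNA in the differences above was not tested. Among 22 immediate early genes, 6 were lower, including Klf4 (-1.64) and Dusp1 (-0.95), and Egr2 was higher (1.08, adjusted p = 0.00468 by edgeR). Bmi1, the gene of the reporter, was at 17.3, 14.2 and 18.6 CPM of all UMIs in members and 16.3, 15.3 and 17.5 in the other hormone cells, and was not called. Of the 19 reporter and Polycomb genes, Cbx6, Cbx7 and Ezh1 were higher and none was lower by the edgeR test.

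Gip-dominant cells were next set against Cck-dominant cells alone, a class named only by its leading hormone. By edgeR 1315 genes were higher (11.0% of 11971) and 1265 lower (10.6%), or 1742 and 771 without TMM scaling. Of 10 enterochromaffin markers, 6 were lower in Gip-dominant cells (Tph1, Tac1, Slc18a1, Chga, Trpa1 and Ucn3) and 1 was higher (Ddc). The share of I cells in the Cck-dominant class was not tested. Rgs4, a regulator of G protein signalling, was at 233 CPM at E17.5, 352 for the adult and 350.0 after irradiation, against 12.4, 5.25 and 11.8 (log2 fold change 4.79 ± 0.26 (SE), adjusted p = 1.08e-06). Pdk4 (4.60), Slfn8 (4.51), Ankrd31 (4.45) and Cd44 (4.16) followed. The cytochrome P450 gene Cyp2j5 was lower, at 1.72 against 213 CPM in the adult and 2.73 against 188 in the irradiated adult, while at E17.5 members had 0 and Cck-dominant cells 2.54 CPM (adjusted p = 3.22e-07). Pzp (-5.66), Tril (-5.32), Lyzl4 (-5.16) and Crp (-4.91) were also lower. Of 31 transcription factors 9 were higher and 6 were lower. Among the higher were Hhex and Rfx3, which were not higher against all the other hormone cells. Iapp and Asic5, both lower against all the other hormone cells, were called higher against Cck-dominant cells. The calls were 2182 and 1994 without E17.5, 582 and 550 without the adult, and 693 and 617 without the irradiated adult.

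Against Gcg-dominant cells, the L cells by their leading hormone, the adult had only 11 reference cells and was left out, so that 2 libraries were compared. edgeR called 130 genes higher (1.46% of 8905) and 75 lower (0.842%). The integrin Itga4 was at 123 and 132 CPM against 2.45 and 3.47 (log2 fold change 5.51 ± 0.48 (SE), adjusted p = 8.04e-05). Col6a5 (5.32), Nqo1 (4.26) and Cnr1, with 247 and 425 CPM against 12.3 and 3.47, were higher too. Zg16, a goblet cell lectin, was called (4.42) on 1 UMI at E17.5 and 3094 CPM in the irradiated adult, where tuft-marker cells held 601 CPM of it. Pyy was lower, at 2838 and 665 CPM against 24769 and 11904 (log2 fold change -3.60 ± 0.25 (SE), adjusted p = 2.52e-05). Slc38a5 (-3.91), Gal (-3.86), Ceacam10 (-3.69) and Kcnk16 (-3.44) were lower, although Slc38a5 had 0 UMIs in both classes of the irradiated adult. Rfx6, Pdx1 and Onecut2 were higher and Etv1 lower among 27 transcription factors. Of 22 granule genes 0 were called in this comparison. DESeq2 called 30 and 21 genes over all, and edgeR without the block 0 and 0 (184 and 102 at an unadjusted p under 0.05). Of the 10 genes named here, Col6a5, Zg16 and Slc38a5 were not called by DESeq2.

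Against Ghrl-dominant cells, 648 genes were higher (6.18% of 10482) and 397 lower (3.79%) by edgeR. Cnr1 was at 247, 519 and 425 CPM against 5.49, 0 and 0 (adjusted p = 4.04e-11). Fabp5 (5.40), Pdk4 (5.26), Tmprss7 (4.73) and Pkib (4.65) were next. Mboat4, the acyltransferase that activates ghrelin, was lower at 37.2 CPM at E17.5, 2.95 for the adult and 1.71 after irradiation, against 245, 255 and 337 (log2 fold change -4.99 ± 0.50 (SE), adjusted p = 6.58e-08). The phospholipase Plb1 (-6.49), Ceacam10 (-5.41), Cd177 (-5.23) and Kcnk16 (-4.89) were lower as well. The calls were 992 and 765 without E17.5 and 392 and 231 without the irradiated adult.

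Irradiated and unirradiated adults were compared over Gip-dominant cells as log2 of (CPM + 1) ratios, for genes with at least 50 UMIs over both libraries, and these log2 ratios stand in parentheses. p53 target genes, which the p53 protein is known to raise after DNA damage, were higher in the irradiated library, and lipid and enterocyte genes were lower in deep members, while in shallow ones at most 1 gene of either list was 2-fold lower. Of 9973 genes, 196 (1.97%) were at least 2-fold higher and 299 (3.0%) at least 2-fold lower in the irradiated adult. Among 25 p53 targets, 13 were at least 2-fold higher and 0 were 2-fold lower, with a median log2 ratio of 1.02 (all genes -0.03). In deep members it was 15 of 23, with a median of 1.17 (all genes 0.04; of 8610 genes 2.54% were 2-fold higher and 2.92% lower). In shallow members it was 7 of 19, with a median of 0.73, where 1.39% of 7057 genes were 2-fold higher and 2.08% lower. The other hormone-dominant cells had 12 of 27 and a median of 0.78 (2.3% of 11234 genes 2-fold higher, 1.83% lower), so the difference was not limited to Gip-dominant cells.

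Phlda3 (chr1:135766119-135769136, plus strand), a p53 target that restrains Akt signalling, was counted 2 times in the adult members and 274 times in the irradiated ones, or 0.39 (exact 95% Poisson interval 0.0472 to 1.41) against 73.8 CPM (65.3 to 83.1). Ccng1 (chr11:40748552-40755311, minus strand), cyclin G1, was at 11.7 CPM for the adult and 145 after irradiation, a log2 ratio of 3.52 (3.52 in deep and 3.08 in shallow members). The apoptosis gene Bax was at 103 CPM for the adult and 383 after irradiation (1.88), and the exonuclease Aen at 16.9 CPM for the adult and 76.5 after irradiation (2.11). Gdf15, a secreted stress hormone, had 12.1 CPM for the adult and 67.1 after irradiation (2.38). Cdkn1a, the cell cycle inhibitor p21, was the most abundant of the 13 at 639 CPM for the adult and 1303 after irradiation (1.03), and its ratio was 1.03 in deep but 0.15 in shallow members. Mdm2, the ubiquitin ligase of p53, was at 43.6 CPM for the adult and 89.5 after irradiation (1.02).

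The other 6 genes past 2-fold were Psrc1 (3.19), the kinase Ak1 (2.49), Dcxr (2.25), Zmat3 (1.85), Polk (1.12) and Rps27l (1.03). Btg2 (-0.12), Tap1 (-0.25), Plk3 (-0.29) and Ddb2 (-0.34) had ratios below 0. Ak1 showed a larger ratio in Gip-dominant cells than in the other hormone cells, where it was 0.78, and this difference was not tested. In tuft-marker cells Ccng1 was at 29.7 and 183 CPM and Phlda3 at 0.796 and 58.3.

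**Figure D4:**
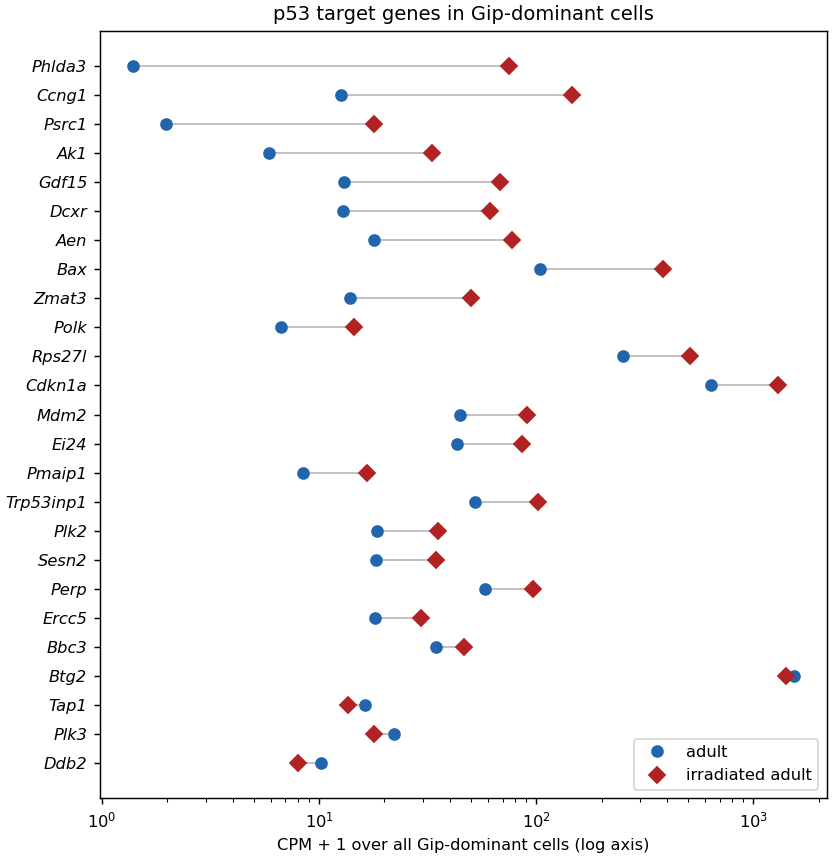
CPM plus 1 over all Gip-dominant cells, on a log axis, is plotted for 25 p53 target genes in the adult (circles) and irradiated adult (diamonds) libraries, with a line joining the pair. For 21 genes the irradiated value is the higher, and for Phlda3 it is 73.8 CPM against 0.39.

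Summed over members, lipid handling and enterocyte genes were lower in the irradiated adult, with the larger ratios in deep members. In the lipid list 0 of 18 were 2-fold higher and 5 were 2-fold lower, with a median of -0.74. The enterocyte markers had 0 higher and 7 lower of 11, with a median of -2.40. In deep members 9 of 18 lipid genes and 8 of 11 enterocyte markers were 2-fold lower (medians -0.81 and -3.02). In shallow members, which were 883 of 1070 in the adult and 309 of 492 in the irradiated adult, 0 of 16 lipid genes were lower and 1 was higher (median -0.27), and of 9 enterocyte markers 1 was higher and 1 lower (median -0.34). The median member held 0.198% of its UMIs from enterocyte markers for the adult and 0.230% after irradiation, the opposite order to the summed shares of 0.547% and 0.286%. Enterocyte-marker cells numbered 4 among adult and 0 among irradiated members. Fabp2, the intestinal fatty acid binding protein, was at 882 CPM for the adult and 122 after irradiation (-2.85). The deep adult members held 1391 CPM and the shallow ones 223, against 108 and 168 in the irradiated adult, so the difference lay in deep members. Apoa4, an apolipoprotein of chylomicrons, was at 143 CPM for the adult and 9.97 after irradiation (-3.72), and was detected in only 5.79% of adult members. Apoa1 (-2.40), Mttp (-2.22) and Fabp1 (-1.52) were the remaining lipid genes past 2-fold. Fabp5, by contrast, was at 6998 CPM of all UMIs for the adult and 9387 after irradiation. In the other hormone cells the enterocyte markers had 0 higher and 5 lower of 10, with a median of -0.90.

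Endocrine genes differed less. Of 26 transcription factors only Lmx1a was past 2-fold (1.98); Isl1 was at 960.5 CPM for the adult and 514 after irradiation (-0.90) and Foxa1 at 30.8 CPM for the adult and 54.2 after irradiation (0.80). Sct was at 14925 CPM for the adult and 8997 after irradiation (-0.73). Chga was at 415 CPM for the adult and 1258 after irradiation (1.60), Tac1, the substance P gene of enterochromaffin cells, at 25.3 CPM for the adult and 214 after irradiation (3.03), and Reg4 at 359 CPM for the adult and 1995 after irradiation (2.47). Tuft-marker cells showed the same order with larger ratios, of 3.00, 6.30 and 3.63. Among 9 enterochromaffin markers 5 were 2-fold higher in members, and their sum was 1763 CPM for the adult and 4603 after irradiation. The part of free RNA in these ratios was not tested. The reporter transcript eGFP had 11 UMIs (2.14 CPM) in the adult and 59 (15.9 CPM) in the irradiated adult, and 1.51 and 15.9 CPM in the other hormone cells.

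Paneth and goblet genes made up 5 of the 12 higher genes named by rule: Zg16 (9.43), Spink4 (2.99), Lyz1 (2.84), Itln1 (2.39) and Defa29 (2.26). Much of this RNA sat in few cells. Leaving out 9 irradiated and 12 adult members with at least 5% of their UMIs from Paneth or goblet markers gave 6.05, 1.05, 0.07, 0.16 and -0.51 for the same genes. Zg16 stood at 5.57 and 601 CPM in tuft-marker cells. Zg16 was detected in 77.8% of irradiated and 1.21% of adult members. The phosphatase Ptp4a3 and the calcium binding protein S100a6, which are on neither marker list, moved little at that step: Ptp4a3 (2.49, then 2.52), S100a6 (2.53, then 2.32).

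The lower genes named by rule included Fabp2, Lars2 (-2.28), Wdr89 (-2.12), the inflammasome adaptor Pycard (-1.90), Hmgb2 (-1.62), Fabp1, Ankrd31 (-1.46), Snrpg (-1.43), the transporter Abcg2 (-1.35), Oat (-1.32) and Lypd8 (-1.26). Wdr89 and Snrpg have near-identical pseudogene copies, and their counts are uncertain. Ankrd31, which is typical of Gip-dominant cells, had a ratio of -0.37 in deep members. Of 24 interferon and MHC genes, 0 were 2-fold higher and 5 lower, among them the class II genes H2-Ab1 (36.6 CPM for the adult and 8.62 after irradiation) and Cd74 (21.6 and 6.47). In deep members 7 of 23 were lower (median -0.27), and in shallow members 1 of 16 (median 0.04). The G2/M list had 5 of 6 genes 2-fold lower, out of 15 in the list. In deep members it was 2 of 3, and in shallow members 0 of 1. The other hormone cells had 6 of 7 lower and 0 higher (median -1.72), so this difference was not limited to Gip-dominant cells.

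Adult and E17.5 members were compared in the same way. Fetal and imprinted growth genes and the gut peptides beside Gip were lower in the adult. MHC genes and the glucose transporter Slc5a1 were higher. These directions held over all members and over deep members alike. In the other hormone cells 13 of 17 fetal genes were 2-fold lower and 0 higher (median -3.31). Of 12 peptide genes there, 7 were lower and 1 higher (-2.49). Of 23 interferon and MHC genes 15 were higher and 0 lower (1.48), and Slc5a1 was also 2-fold higher. These list differences were thus not limited to Gip-dominant cells. Channel genes were mostly 2-fold higher over all members; among deep ones most still lay above 0, but fewer were past 2-fold. Of 9186 genes, 1471 (16.0%) were at least 2-fold higher and 880 (9.58%) at least 2-fold lower in the adult. Among deep members the shares were 7.67% and 5.85% of 7487 genes, and among shallow members, of which E17.5 had 10, they were 33.2% and 19.3% of 5901. The other hormone cells had 7.03% and 7.29% of 10934. Stage and depth therefore differed together. Values of deep members, 117 at E17.5 and 187 in the adult, are given beside part of what follows.

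Of 11 fetal and imprinted growth genes, 7 were 2-fold lower in the adult and 1 was higher, with a median log2 ratio of -1.97 (all genes 0.09), or -3.13 in deep members (all genes -0.07). H19, an imprinted RNA of fetal tissue, had 318 UMIs at E17.5 (263 CPM), in 18.9% of members, and 0 in the adult, which allows up to 0.584 CPM (3 counts). The growth factor gene midkine (Mdk) was at 232 CPM at E17.5 and 2.34 in the adult (-6.81 in deep members). The RNA binding proteins Igf2bp1 (93.3 CPM at E17.5 and 1.17 in the adult) and Igf2bp3 (54.5 CPM at E17.5 and 2.53 in the adult) and the imprinted Dlk1 (123 CPM at E17.5 and 3.51 in the adult) were in the same group. Meg3 was at 1367 CPM at E17.5 and 349 in the adult (-1.97; -3.13 in deep members). Alpha-fetoprotein (Afp) went the other way, at 23.9 CPM at E17.5 and 82 in the adult (1.73), and was at 377 CPM in the irradiated adult. The imprinted genes Peg10 (-6.63), Kcnq1ot1 (-6.17) and Nnat (-4.02), outside this list, were also lower, Nnat from 2566 to 157 CPM.

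The peptide genes besides Gip were lower in the adult: 6 of 9 tested were 2-fold lower and 1 was higher. Sct was at 53771 CPM at E17.5 and 14925 in the adult (-1.85; -1.86 in deep members), whereas in the other hormone cells it was at 60885 and 67473 CPM. Gastrin (Gast) was at 405 CPM at E17.5 and 2.34 in the adult (-6.93), Pyy at 2455 CPM at E17.5 and 457 in the adult (-2.42) and Iapp at 288 CPM at E17.5 and 25.3 in the adult (-3.46). The peptide gene that was higher was Cartpt, at 4.13 CPM at E17.5 and 43.1 in the adult. Transthyretin (Ttr), a hormone carrier abundant in fetal endocrine cells, was at 2307 CPM at E17.5 and 76.4 in the adult (-4.90). Pcsk2, the second prohormone convertase, was at 6.61 CPM at E17.5 and 26.3 in the adult (1.84; other hormone cells -3.42).

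Among 26 transcription factors 5 were 2-fold higher and 5 lower, where 16.0% and 9.58% of all genes were. In deep members 1 was higher and 5 were lower of 26, against 7.67% and 5.85% of all genes. Rfx6 was at 106 CPM at E17.5 and 345 in the adult (1.70), but its ratio was 0.42 in deep members, at 104 and 139 CPM. Etv1 was at 219.6 CPM at E17.5 and 55.3 in the adult (-1.97; -2.09 in deep members), Pax4, a factor of early endocrine precursors, at 52 CPM at E17.5 and 4.48 in the adult (-3.27), and Hhex (-2.85), Onecut3 (-2.07) and Foxa3 (-1.77) were lower as well. In the other hormone cells Etv1 had a ratio of 0.11, Hhex 0.40 and Onecut3 0.28, and the difference from Gip-dominant cells was not tested.

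Nutrient sensing genes were 5 higher and 1 lower of 15, and 2 higher and 2 lower of 15 in deep members. Slc5a1 was at 44.6 CPM at E17.5 and 195 in the adult (2.10; 2.23 in deep members) and Ffar1 at 66.1 CPM at E17.5 and 142 in the adult (1.09; 0.98). Ffar2 was at 83.4 CPM at E17.5 and 18.3 in the adult (-2.13). Channel genes were 11 higher and 0 lower of 15, with a median of 1.68, and 4 of 11 in deep members, where 9 of 11 lay above 0, with a median of 0.53. Cacna1a was at 218 CPM at E17.5 and 702 in the adult, with a ratio of 1.68 over all members and 0.53 in deep ones. Trpm5, a taste and tuft cell cation channel, had 0 UMIs at E17.5 and 167 in the adult (32.5 CPM, in 8.60% of members). Of 14 tuft markers tested, 12 were 2-fold higher in adult members, and Trpm5 and Dclk1 were both at 0 at E17.5, where no cell carried tuft markers at 1% of its UMIs.

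Interferon and MHC genes were 12 higher and 1 lower of 23, with a median of 1.03, and 11 higher and 0 lower of 21 in deep members, with a median of 1.44. B2m, the class I light chain, was at 57.8 CPM at E17.5 and 177 in the adult (1.60; 1.85 in deep members). The class II genes Cd74 (2.48 CPM at E17.5 and 21.6 in the adult) and H2-Ab1 (1.65 CPM at E17.5 and 36.6 in the adult) were in this group, and Isg15 had 0 UMIs at E17.5 and 104 in the adult. Immune cell markers summed to 12.4 CPM in E17.5 and 15.6 CPM in adult members, and the T cell markers among them were at 0. The polymeric immunoglobulin receptor Pigr, which moves IgA across the epithelium, was at 6.61 CPM at E17.5 and 655 in the adult (6.43; 6.68 in deep members), and Sfrp5, a Wnt inhibitor, at 1.65 CPM at E17.5 and 99.2 in the adult (5.24).

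Other cell types' RNA also separated the stages. The genes with the highest ratios were Paneth defensins and Itln1, with Defa30 at 2.48 CPM at E17.5 and 1632 in the adult. Paneth markers were found in every adult member, at 0.0222% of UMIs or more, with a median of 0.917% and quartiles of 0.568% and 1.31%, against a median of 0 at E17.5. The most negative ratio by rule was that of the acinar gene Ctrb1, with 182 UMIs at E17.5 and 0 in the adult, and Clps, a pancreatic colipase, was at 2887 CPM at E17.5 and 33.7 in the adult in members and at 2649.8 and 35 CPM in the other hormone cells. The part of free RNA in these ratios was not tested. Bmi1 was at 17.3 CPM at E17.5 and 14.2 in the adult and no gene of the reporter and Polycomb list was past 2-fold.

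**Figure D5:**
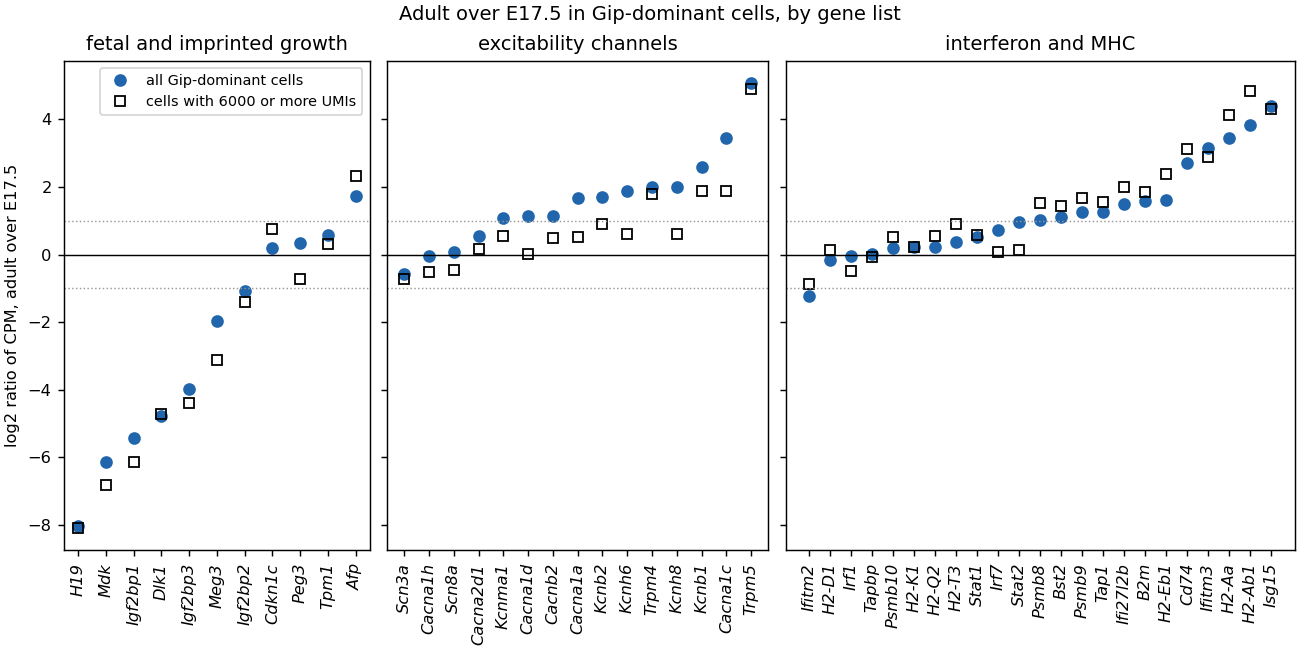
The log2 ratio of CPM (plus 1), adult over E17.5, is plotted for each tested gene of 3 lists over all Gip-dominant cells (circles) and over cells with at least 6000 UMIs (open squares); dotted lines mark 2-fold. H19, Trpm5, H2-Aa and Isg15 have 0 UMIs in 1 library, so their ratios depend on the 1 CPM added. Over genes with at least 50 UMIs at each depth, the channel median was 0.53 in deeper cells (11 genes) and 1.68 over all (15). For the interferon and MHC list it was 1.44 (21 genes) and 1.03 (23).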

How the data were processed

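Per the labels' protocols, sorted intestinal epithelial cells were made into 10x Chromium version 3 libraries; Cell Ranger 3.1.0 and mm10 are named in the submitters' processing notes. The authors deposited 1 matrix per library with the UMI count of each of 31054 features in each barcode, as whole numbers without normalization. Gip-dominant members totalled 1211126 UMIs at E17.5, 5132830 for the adult and 3711223 after irradiation, and these sums limit the precision.

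The members, the 24 gene lists and the tests were chosen with earlier results of these data known. Of 439 list symbols, 437 are in the files. Cells were kept with at least 500 genes and at most 20% mitochondrial UMIs. Doublets were not removed; removal, at 0.8% per 1000 barcodes by Scrublet score (scanpy 1.11.5), was an alternative.

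Member UMIs were summed per library and set against the sums of other hormone classes (at least 20 cells) with edgeR 4.0.16 (R 4.3.3): TMM factors, filterByExpr, quasi-likelihood test, library as a block, Benjamini-Hochberg adjustment over all genes, the 8 rule genes left out. The block pairs cells of the same library, hence of the same mice. Standard errors are the log2 fold change over the root of the F statistic. These p-values rest on 3 libraries of different stage and treatment (2 for Gcg). Libraries were compared by log2((CPM + 1)/(CPM + 1)), with a call at 2-fold and no test. Levels carry exact Poisson and shares exact Clopper-Pearson 95% intervals; a value of 0 carries the limit of 3 counts instead. Tuft-marker cells have at least 1% tuft-marker UMIs and enterocyte-marker cells at least 5%, outside the hormone classes for the Sct and Cck medians.

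Named genes were the 12 (5 for a single class) furthest each way among those with at least 100 UMIs in the higher group and a UMI in 25% of its cells, for edgeR also called and in the same direction in every library; ribosomal, mitochondrial, predicted and sex-linked genes stayed out. Some genes of the lists or the rule are not reported here. On simulated sums with known changes, the edgeR comparison with the other hormone cells recovered 37% of 2-fold and 98% of 4-fold changes (12728 genes, 6 false among 141 calls). These sums had a single dispersion for all genes and equal class means apart from the set changes. The irradiated to adult ratio placed 99.5% of 200 larger changes past 2-fold (9890 genes, 1 other past it). Its sums were Poisson draws with no spread between cells, so it could not show ratios carried by few cells, such as those of Paneth and goblet genes. Alternatives were DESeq2 1.42.0, no TMM, no filter, no block, each library left out, other cell filters and Gip limits, pseudocounts, scalings and UMI minimums; the depth split and the removal of Paneth or goblet-rich members were added after seeing the data. E12.5 entered no comparison.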

Additional observations from a re-analysis of the deposited data

Results flagged for a closer look

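In 4 of the listed genes the ratio of Gip-dominant to other hormone-dominant cells was at least 2-fold one way in a library and at least 2-fold the other way in another, and the differences between libraries were not tested. The log2 ratio of Pcsk2, a prohormone convertase, was 1.55 in the adult and -3.84 at E17.5. At E17.5 Pcsk2 was at 6.61 CPM in members and 105 CPM in the other hormone cells. For the goblet and Paneth lineage factor Spdef the log2 ratio was 1.07 in the irradiated adult and -2.06 at E17.5. For the Hox gene Hoxb8 it was 1.17 in the irradiated adult and -1.78 at E17.5. The listed Hox genes had too few UMIs in members for the comparison of adult with E17.5. For the defensin Defa17, which has near-identical copies, it was 1.49 in the irradiated adult and -1.79 at E17.5. E17.5 members held 2 UMIs of Defa17.

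The E12.5 library, which enters no comparison, held 31 Gip UMIs.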

How the results depend on the processing

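Every one of the 24 genes named against all other hormone cells kept its direction and call under each alternative except the fit with no replicate block. That fit, which ignores that classes of a library are paired, called 79 higher and 59 lower (14 of the 24 remained called); against Cck it called 105 and 97, against Ghrl 88 and 57, and against Gcg 0 and 0 (edgeR; 184 and 102 at unadjusted p under 0.05; DESeq2 with the block 30 and 21). DESeq2 called 810 and 691 against all others, 746 and 700 against Cck, and 283 and 226 against Ghrl. Leaving out 1 library gave 480 to 2198 higher and 465 to 2037 lower against all others, 582 to 2182 and 550 to 1994 against Cck, and 392 to 992 and 231 to 765 against Ghrl; the cause was not tested. Cells under 6000 UMIs gave 611 and 688. Without the low-count filter the Gcg calls were 289 and 177, and without TMM those against Cck were 1742 and 771. Of the 10 genes named against each single class, 7 of 9 fitted remained called against Cck, 9 against Ghrl and 0 against Gcg without the block, and 7 against Gcg by DESeq2.

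The Gip-dominant share was 2.24% at E17.5 with Gip at least 5% of UMIs. In the adult it was 24.3% over every barcode, 31.9% and 25.2% with Gip limits of 1% and 5%, and 25.3% in cells with at least 2000 UMIs. In the irradiated adult it was 10.6% under the stricter cell filter (1000 genes, 10% mitochondrial UMIs) and 17.1% and 13.4% with the 1% and 5% limits. The share of members with a Cck UMI was 100% at E17.5 thinned to 4000 UMIs or not thinned. In the adult it was 83.0% at 1000 UMIs, 98.1% at 4000 and 98.4% unthinned, and in the irradiated adult 88.2% at 1000 and 99.6% unthinned.

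For irradiated over adult, genes past 2-fold higher and lower were 109 and 109 with 10 CPM added, 401 and 595 with a minimum of 10 UMIs, 78 and 92 with 200 UMIs, and 98 and 147 in shallow members; with Gip at least 5%, 129 were higher. The Defa29 ratio turned to -0.085 as a mean of cells, -0.69 with Gip at least 5%, -0.37 in shallow members and -0.51 without Paneth or goblet-rich members. Itln1 (-0.0076) and Lyz1 (-0.012) turned with Gip at least 5%. For adult over E17.5, the counts were 700 and 522 with 10 CPM added, 632 and 488 with 200 UMIs, and 574 and 438 in deep members. The lower count was 1484 as a mean of cells and 1336 with 10 UMIs, and the higher count 886 under the stricter filter. Apoc3 turned to 1.15 without putative doublets and 4.60 in shallow members, and Gdf15 to 3.71 in shallow members, of which E17.5 had 10; the cause was not tested.

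Depth limits low genes most: adult members had a median of 2591 UMIs, and genes under 50 UMIs over both libraries were not compared.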

Other observations

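Gene groups that the comparisons above did not describe can be given as values. Heat shock and ER stress genes were 7 of 21 at least 2-fold lower and 0 higher in adult than in E17.5 members (median -0.56, all genes 0.09), among them the chaperones Pdia6, Manf and Sdf2l1, and 4 of 21 were lower in deep members (median -0.54). In the other hormone cells 0 of 21 were past 2-fold (median 0.00). Regional identity genes had 0 of 9 past 2-fold in members, while in the other hormone cells 8 of 17 were 2-fold lower in the adult, among them Hoxb4 and Hoxb7. These differences between cell classes were not tested, and the Hox genes of the list had too few UMIs in members to be compared. Crypt stem markers were 4 of 7 higher and 0 lower in adult members, among them Olfm4 and Smoc2, with a summed level of 72.7 CPM at E17.5 and 259.9 CPM in the adult.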
